A study of Mus musculus with 16 samples.

Results

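The 6 arrays described here compare splenic CD4+ T cells of Cre control mice with and without nephrotoxic nephritis. They are all the arrays that carry those labels, out of 16 in the series. The NTN_CD4cre group (3 arrays) came from male mice of 8 to 10 weeks that had received an intraperitoneal injection of nephrotoxic sheep serum, 2.5 mg per g of body weight, and whose organs were taken on day 10. The CD4cre group (3 arrays) came from male mice of the same age labelled as having no inflammation. The labels do not state whether those mice received a control serum. Both groups express Cre recombinase from the CD4 promoter and, per the labels, carry no floxed gene, so Cre itself is shared by all 6 arrays. The other 10 arrays hold T cells with IKK2 (3 arrays with nephritis and 3 without) or NEMO (2 and 2) deleted by the same Cre, and they enter here through the shared estimate of the spread. The labels do not tie arrays to separate mice, so the p values reflect variation among these arrays alone, and part of it may be technical.

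Nephrotoxic serum holds antibodies against the glomerular basement membrane of the kidney. The recipient mounts an immune response against the foreign antibody planted there, and CD4+ T cells carry much of the injury that follows. The spleen is a site where such T cells are primed, divide, help B cells in follicles and take on effector or regulatory programmes. The comparison asks which transcripts of the splenic CD4+ population differ on day 10 in mice whose NF-kB kinases are intact.

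Each level below is a log2 signal relative to the 75th percentile of its own array, so 0 is the signal that 75% of probes stay under, and negative levels are dimmer. The 3 NTN_CD4cre arrays lie on slide 1 and the 3 CD4cre arrays on slide 2, so slide and nephritis cannot be told apart within these 6 arrays. The net signal of negative control spots was 40.5 to 44.1 on the NTN_CD4cre arrays and 19.5 to 22.4 on the CD4cre arrays. Only the IKK2 knockout without nephritis lies on both slides, with replicates 1 and 2 on slide 1 and replicate 3 on slide 2, and a fit with slide as a block rests on it. Each blocked difference below is the difference between the groups less the slide difference of that knockout. A blocked difference and a slide difference of the same gene are therefore not independent. Probes well above background made up 48.9% to 52.1% of spots on the NTN_CD4cre arrays and 50.9% to 56.2% on the CD4cre arrays. CD4cre replicate 1 had a replicate-spot coefficient of variation of 21.1%, against at most 11.6% on all other arrays of the series. NTN_CD4cre replicate 2 stood apart on the third principal component, at -67.4. Correlations across genes were 0.971 to 0.982 between NTN_CD4cre arrays and 0.989 to 0.993 between CD4cre arrays.

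Transcripts of dividing cells, of the endoplasmic reticulum folding machinery and of several non-T cell types were higher in NTN_CD4cre than in CD4cre arrays, while the T cell identity genes did not pass the test. Of 14675 genes tested, 591 (4.03%) passed an adjusted p of 0.05 in limma. Of these, 376 (2.56% of genes tested) were higher and 215 (1.47%) were lower with nephritis. A change of at least 2-fold was seen in 163 of the higher genes and 53 of the lower ones. The 3 arrays of each group did not overlap for 3054 genes (20.8%) in the higher direction and 1281 (8.73%) in the lower. The median difference over all genes was 0.10, so list medians are given beside that value. The number of called genes was 2 with slide as a block and 0 when only the 6 arrays were fitted, where limma gave 2891 genes an unadjusted p under 0.05. It was 111 without CD4cre replicate 1, 198 without CD4cre replicate 3, 270 without CD4cre replicate 2, 843 without NTN_CD4cre replicate 1, 198 without NTN_CD4cre replicate 2, 225 without NTN_CD4cre replicate 3, and 63 without the 2 arrays that stood apart. Of the 66 called genes that are named by rule (49 higher, 17 lower), all 66 kept their direction in each of these fits. The groups did not overlap for any of the 66. Leaving out arrays, or fitting only the 6 arrays, therefore could not turn their direction. The calls that held were 50, 24 and 30 without NTN_CD4cre replicate 1, 2 and 3, and 14, 27 and 26 without CD4cre replicate 1, 2 and 3.

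**Figure D1:**
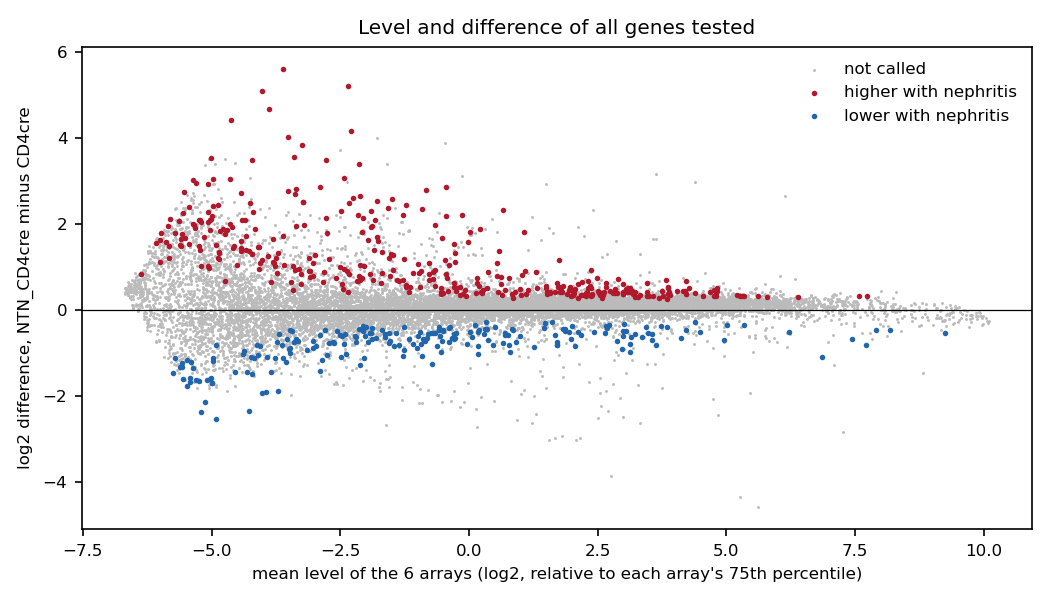
Each point is a gene: the horizontal axis gives its mean level over the 6 arrays (log2, relative to each array's 75th percentile) and the vertical axis the log2 difference, NTN_CD4cre minus CD4cre. Red points are the 376 called genes that were higher with nephritis and blue points the 215 that were lower; grey points did not pass an adjusted p of 0.05.

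Cd4 and Cd3e, which define the sorted population, overlapped between the groups. Cd4, the co-receptor used for the sort, read 6.07, 5.997 and 5.87 on the NTN_CD4cre arrays and 6.19, 6.02 and 5.89 on the CD4cre arrays. Cd3e, a chain of the T cell receptor complex, read 7.08, 7.04 and 6.96 with nephritis and 6.97, 7.14 and 7.06 without. None of the 15 T cell identity genes passed the test, 3 of them (Cd3g, Cd28 and Zap70) did not overlap between the groups and were higher with nephritis (against 20.8% of all genes), 1 had an unadjusted limma p under 0.05, and the list median was 0.06. None of the 20 naive and quiescent T cell genes passed either (2 at an unadjusted p under 0.05), with a median of 0.06. Cd44, an adhesion receptor that marks antigen-experienced cells, differed by 0.03 ± 0.19 (SE, adjusted p = 0.924).

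Il1rl1 was the 1 called gene of the 12 Th2 genes tested (8.33%, against 2.56% of all genes called higher). It encodes ST2, the receptor for the alarmin IL-33, found on Th2 cells and on a subset of regulatory T cells. Its level was 1.39, 1.11 and 1.29 on the NTN_CD4cre arrays, against -0.05, -0.14 and -0.08 on the CD4cre arrays. The difference was 1.36 ± 0.21 (adjusted p = 0.011), or 2.56-fold, and the groups did not overlap. The other 11 Th2 genes did not pass: Il4, the signature Th2 cytokine, differed by 0.36 ± 0.34 (adjusted p = 0.527), and Gata3, the lineage's master transcription factor, by 0.14 ± 0.08 (adjusted p = 0.291). All 12 differences were positive, with a median of 0.36, against 0.10 for all genes. For 6 of the 12 the NTN_CD4cre arrays lay above all CD4cre arrays, against 20.8% of all genes, and 3 had an unadjusted limma p under 0.05.

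The galectin Lgals3 and the calcium-binding proteins Anxa2 and S100a11, which effector and memory T cells carry at higher levels than naive cells, rose among 25 antigen-experienced genes tested. These 3 were the called members (12%, against 2.56% of all genes called higher), and none was called lower. Of the 25, 17 had positive and 8 negative differences, from -3.87 to 1.16, with a median of 0.18. The arrays did not overlap for 11 in the higher direction (against 20.8% of all genes) and 3 in the lower (against 8.73%). Lgals3 read 2.55, 2.32 and 2.08 with nephritis and 1.08, 1.39 and 1.02 without, a difference of 1.16 ± 0.26 (adjusted p = 0.034). It was the single named gene still called with slide as a block, at 2.26 ± 0.27 (adjusted p = 0.043). Its level differed by -1.10 between slide 1 and slide 2 in the IKK2 knockout without nephritis. The blocked value is computed from this slide difference, which rests on 1 array on slide 2, so it is no separate evidence. The difference was 0.70 ± 0.15 for Anxa2 and 0.59 ± 0.11 for S100a11. Fewer cells of a type and less RNA per cell cannot be told apart in these bulk samples, here or below.

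The 2 called genes of follicular helper T cells, the subset that helps B cells in germinal centres, are transcription factors, and both rose. Ascl2, which starts that programme by inducing the follicle-homing receptor CXCR5, read -1.56, -0.49 and -0.76 on the NTN_CD4cre arrays and -2.74, -3.70 and -2.14 on the CD4cre arrays. Its difference was 1.92 ± 0.44 (adjusted p = 0.035). Bcl6, the defining factor of the subset, read 3.06, 3.32 and 3.14 with nephritis and 2.82, 2.73 and 2.88 without, a smaller difference of 0.37 ± 0.09 (adjusted p = 0.038). For both genes all 3 NTN_CD4cre arrays lay above all 3 CD4cre arrays. Called genes made up 11.1% of the 18 tested, against 2.56% of all genes called higher. The other 16 of 18 list members did not pass, among them Il21, the cytokine with which these cells help B cells, at 2.02 ± 0.65 (adjusted p = 0.093). The receptors Cxcr5 and Pdcd1 differed by 0.65 ± 0.34 and 0.78 ± 0.30, and the list median was 0.29. Neither Ascl2 nor Bcl6 was called with slide as a block, where their differences were 1.95 ± 0.82 and 0.31 ± 0.16.

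Il10, an anti-inflammatory cytokine of regulatory and other effector T cells, was the 1 called gene of 19 in the regulatory list (median 0.23). That is 5.26%, against 2.56% of all genes called higher. It read -4.10, -3.34 and -3.44 on the NTN_CD4cre arrays and -5.46, -5.32 and -4.90 on the CD4cre arrays, where no array was well above background, so it was at least 2.09-fold higher (adjusted p = 0.024). With slide as a block the Il10 difference was 0.51 ± 0.44, and its level differed by 1.09 between the slides in the IKK2 knockout. Foxp3, the master factor of regulatory T cells, differed by -0.11 ± 0.32 (adjusted p = 0.854) and Il2ra, their high-affinity IL-2 receptor chain, by -0.29 ± 0.26 (adjusted p = 0.489). No gene of the Th1 list (18 tested) or the Th17 list (15 tested) passed; 4 Th1 genes and 1 Th17 gene had an unadjusted limma p under 0.05. Tbx21, the Th1 master factor, differed by -0.45 ± 0.44 (adjusted p = 0.541), and Ifng, its cytokine, by -0.71 ± 0.48 (adjusted p = 0.366). Both differences turned positive with slide as a block, at 1.06 ± 0.61 and 0.98 ± 0.65. In that fit the list median went from -0.11 to 0.92 for Th1 and from 0.25 to 1.34 for Th17, against 0.01 for all genes. None was called there. At an unadjusted limma p under 0.05, 5 of 18 Th1 genes were higher and 0 lower, and 7 of 15 Th17 genes were higher and 1 lower. Il17a was not well above background on any of the 6 arrays. Gzmb, the cytotoxic protease granzyme B, read -0.45, -0.31 and 0.10 with nephritis and -1.60, -0.84 and -1.52 without, a difference of 1.10 ± 0.27 (adjusted p = 0.043). It was the 1 called gene of 15 markers of CD8 T and NK cells (6.67%, against 2.56% of all genes called higher). Of the 15, 7 had positive and 8 negative differences, with a median of -0.06. The arrays did not overlap for 6 of the 15 in the higher direction, Cd8a among them, and for 3 in the lower. Over all genes those shares were 20.8% and 8.73%.

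**Figure D2:**
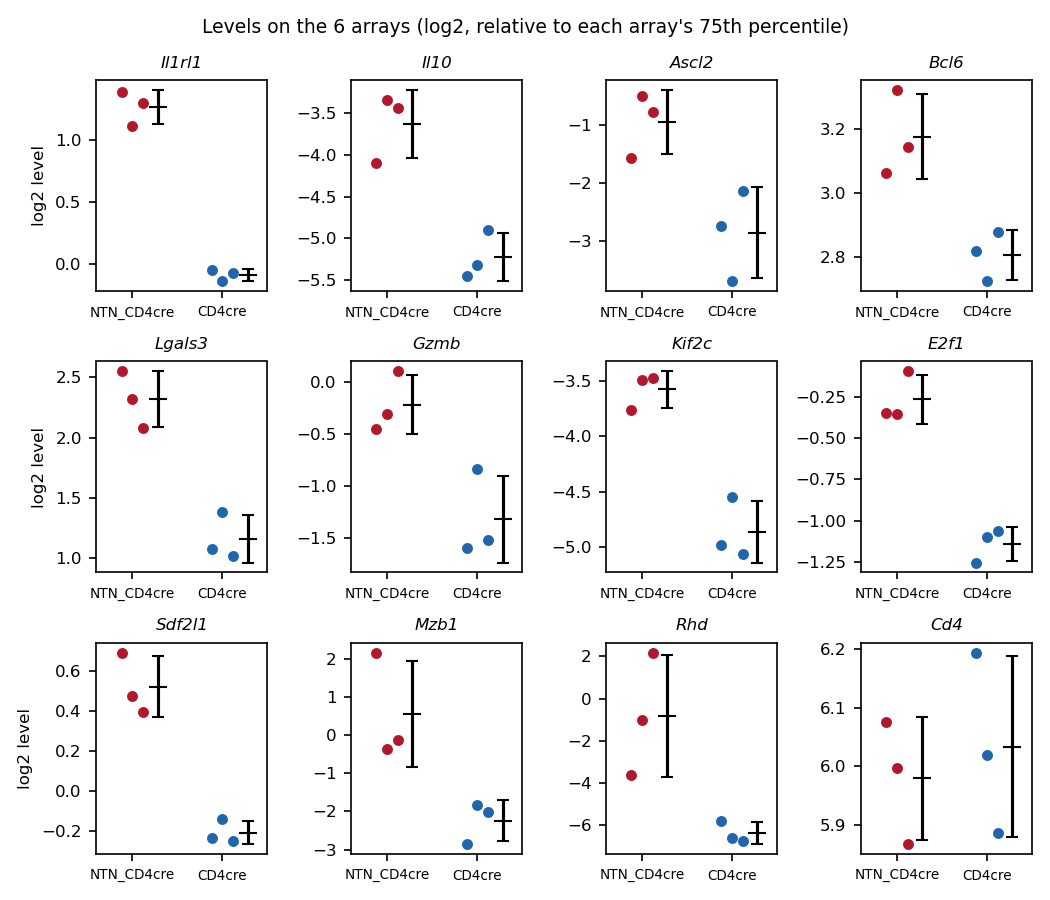
Levels of 12 genes (log2, relative to each array's 75th percentile) on the 3 NTN_CD4cre arrays (red, left) and the 3 CD4cre arrays (blue, right); black marks are means with SD, and each panel has its own axis. The groups did not overlap for 11 of the genes, and for Cd4 they did.

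Genes of the mitotic machinery, which cells make in G2 and M phase, rose on the NTN_CD4cre arrays. Of 30 tested, 9 were higher (30%, against 2.56% of all genes), none was lower, and the median difference was 0.78. In 22 of the 30 the 3 NTN_CD4cre arrays lay above all CD4cre arrays, against 20.8% of all genes. The list's mean level stood 0.42, 0.61 and 0.99 above the CD4cre mean on NTN_CD4cre replicates 1, 2 and 3, while the CD4cre arrays lay between -0.03 and 0.04. The called members were Kif2c, a motor that depolymerises microtubules at centromeres, Ccna2 (cyclin A2), Ube2c, the E2 enzyme of the anaphase-promoting complex, the spindle protein Nusap1, the checkpoint kinase Bub1, Birc5 (survivin), Ccnb2 (cyclin B2), the transcription factor Foxm1 and the kinetochore motor Cenpe. Ube2c read -0.19, 0.11 and 0.95 with nephritis and -0.66, -0.76 and -1.07 without (difference 1.12 ± 0.26, adjusted p = 0.037). Kif2c read -3.77, -3.49 and -3.47 with nephritis and -4.98, -4.55 and -5.06 without (1.28 ± 0.22, adjusted p = 0.014).

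Mki67, the proliferation antigen, did not pass (0.86 ± 0.31, adjusted p = 0.127), although its arrays did not overlap, at 2.06, 2.30 and 3.24 with nephritis and 1.91, 1.54 and 1.58 without. Ttk and Aurkb were not well above background on any of the 6 arrays. Without CD4cre replicate 1, without CD4cre replicate 2, without CD4cre replicate 3 or without NTN_CD4cre replicate 3, 1 mitosis gene was called in each case, with list medians of 0.61 to 0.81. With slide as a block none was called and 24 had an unadjusted limma p under 0.05, with a median of 1.33. The called number was 2 with normexp background correction (median 0.41), 2 with the percentile over detected probes, 4 with the authors' value table (median 0.49), 2 when dim probes were kept, 3 without NTN_CD4cre replicate 2 and 1 without the 2 arrays that stood apart. In the IKK2 knockout without nephritis the same genes were lower on slide 1 than on slide 2, with a median of -0.58.

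Of 29 DNA replication genes tested, 1 was called higher (3.45%, against 2.56% of all genes) and none lower. It was E2f1, the transcription factor that switches on S-phase genes, at -0.35, -0.35 and -0.09 on the NTN_CD4cre arrays and -1.26, -1.10 and -1.07 on the CD4cre arrays. Its difference of 0.88 ± 0.10 (adjusted p = 0.0036) kept its call in all alternatives except slide as a block (adjusted p = 0.103) and the fit of the 6 arrays alone (adjusted p = 0.067). The list median was 0.22, with 26 positive and 3 negative differences. For 19 of the 29 the NTN_CD4cre arrays lay above all CD4cre arrays, against 20.8% of all genes. An unadjusted limma p under 0.05 was reached by 16, all higher. With slide as a block none was called and 12 had an unadjusted limma p under 0.05, with a median of 0.35.

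Promoters of the mitosis genes are shown because many cell cycle genes peak in G2 and M through a short element, the cell cycle genes homology region (TTTGAA), close to CCAAT boxes. The windows come from RefSeq on build GRCm38.p6, each of 300 bases that span the gene's start, on the gene's strand. Of 25 mitosis genes with a promoter in the table, 18 held TTTGAA on either strand, against 20.2% of all 27025 genes, and 19 held CCAAT, against 41.1%. A match describes letters only, and no factor binding was measured. Ube2c lies at chr2:164769679-164769978 (plus strand) and Kif2c at chr4:117178723-117179022 (minus strand). Capitals mark TTTGAA and CCAAT in Ube2c, and TTTGAA in Kif2c, with matches to either strand (TTCAAA and ATTGG are the other strand's letters).
Ube2c: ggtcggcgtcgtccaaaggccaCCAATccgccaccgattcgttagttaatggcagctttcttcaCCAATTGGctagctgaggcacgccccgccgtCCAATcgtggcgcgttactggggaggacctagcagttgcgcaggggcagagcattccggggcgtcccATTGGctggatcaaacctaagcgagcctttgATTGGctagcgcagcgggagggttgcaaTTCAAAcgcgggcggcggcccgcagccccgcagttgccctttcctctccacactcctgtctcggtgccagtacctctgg
Kif2c: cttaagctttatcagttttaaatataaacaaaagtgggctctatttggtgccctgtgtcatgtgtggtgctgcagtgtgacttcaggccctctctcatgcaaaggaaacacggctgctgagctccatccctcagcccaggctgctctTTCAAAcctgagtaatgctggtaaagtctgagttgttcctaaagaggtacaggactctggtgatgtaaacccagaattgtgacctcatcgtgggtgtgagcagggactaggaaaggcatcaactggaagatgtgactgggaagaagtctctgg

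Several chaperones and folding enzymes of the endoplasmic reticulum rose. This set is induced by the unfolded protein response when a cell's secretory load grows. Of 25 list members tested, 7 were higher (28%, against 2.56% of all genes) and none was lower, with a median of 0.24. They were Sdf2l1, a component of the reticulum's chaperone complex, Xbp1, the transcription factor activated by IRE1, the chaperones Hsp90b1 (GRP94), Hspa5 (BiP) and Dnajb11, and the disulfide isomerases Pdia3 and Pdia6. Sdf2l1 read 0.69, 0.47 and 0.40 on the NTN_CD4cre arrays and -0.24, -0.14 and -0.25 on the CD4cre arrays. The difference of 0.73 ± 0.09 (adjusted p = 0.0044) was called in every alternative run except slide as a block (0.59 ± 0.16, adjusted p = 0.197) and the 6 arrays alone (adjusted p = 0.076).

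The bright chaperones shifted by less. Hsp90b1 read 5.15, 5.10 and 4.88 with nephritis and 4.51, 4.75 and 4.57 without (0.43 ± 0.10, adjusted p = 0.038), and Xbp1 read 4.78, 4.41 and 4.36 with nephritis and 4.15, 3.86 and 4.05 without (0.49 ± 0.11, adjusted p = 0.035). Hspa5 differed by 0.33 ± 0.08, Pdia3 by 0.35 ± 0.09, Pdia6 by 0.33 ± 0.07 and Dnajb11 by 0.31 ± 0.06. Members of the amino acid and ATF4 branch did not pass: Atf4, its transcription factor, differed by -0.10 ± 0.24 and Trib3, a target of it, by -0.18 ± 0.20, while Asns (asparagine synthetase) differed by 1.77 ± 0.50 (adjusted p = 0.068). Of the 25 genes, 2 were called with normexp, 2 with the other percentile, 2 with quantile normalization, 1 with the authors' value table and 1 when dim probes were kept. The number called was 1 without CD4cre replicate 1, 3 without CD4cre replicate 2, 1 without CD4cre replicate 3, 3 without NTN_CD4cre replicate 1, 2 without NTN_CD4cre replicate 2 and 1 without the 2 arrays that stood apart. With slide as a block none was called and 6 had an unadjusted limma p under 0.05. Plasma cell markers, which include Xbp1, were also higher and are described further on; their part in the chaperone result was not tested.

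Hsp90b1 illustrates the element through which this response acts, the endoplasmic reticulum stress element (CCAAT, then 9 bases of any kind, then CCACG, so that it contains a CCAAT box). It was found on either strand in 7 of 22 promoters of the list, against 0.137% of all genes. The Hsp90b1 window, at chr10:86705395-86705694 (minus strand, GRCm38.p6, RefSeq), holds 2 matches, marked in capitals.
Hsp90b1: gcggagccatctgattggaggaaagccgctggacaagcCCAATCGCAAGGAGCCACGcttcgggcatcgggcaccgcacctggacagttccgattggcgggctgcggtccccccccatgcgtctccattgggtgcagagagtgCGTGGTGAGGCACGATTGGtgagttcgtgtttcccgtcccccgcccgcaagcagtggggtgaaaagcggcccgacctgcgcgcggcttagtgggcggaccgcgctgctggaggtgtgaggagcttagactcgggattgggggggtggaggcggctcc

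**Figure D3:**
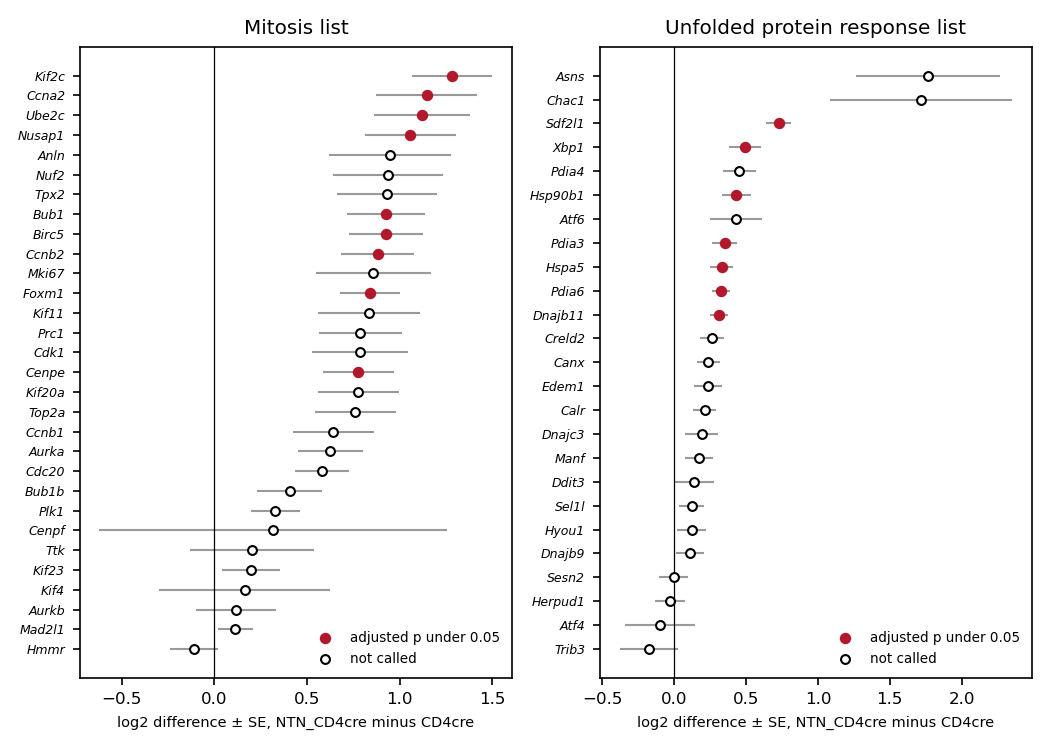
Log2 difference with SE, NTN_CD4cre minus CD4cre, for the 30 mitosis genes (left) and the 25 unfolded protein response genes (right). Filled points passed an adjusted p of 0.05 over all genes, 9 on the left and 7 on the right; open points did not.

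Interferon-stimulated genes shifted in a common direction without passing the test. All 34 tested had a positive difference, with a median of 0.42, and in 27 the NTN_CD4cre arrays lay above all CD4cre arrays, against 20.8% of all genes. None was called by limma, and 13 had an unadjusted p under 0.05, all higher. The list mean stood 0.35, 0.49 and 0.42 above the CD4cre mean on the 3 NTN_CD4cre arrays, while the CD4cre arrays lay between -0.15 and 0.12. Isg15, a ubiquitin-like protein, read 5.91, 6.02 and 6.22 with nephritis and 5.58, 5.60 and 5.18 without (0.60 ± 0.33, adjusted p = 0.273). Rsad2 (viperin) differed by 0.91 ± 0.38 (adjusted p = 0.165) and Bst2 (tetherin) by 0.55 ± 0.16 (adjusted p = 0.067). The median was 0.47 with slide as a block and -0.01 between the slides in the IKK2 knockout. The number at an unadjusted limma p under 0.05 was 3 with slide as a block and 3 without the 2 arrays that stood apart. It was 25 when only the 6 arrays were fitted. The interferon-stimulated response element (GAAA, then 2 bases of any kind, then GAAA, which can overlap itself) occurred on either strand in 15 of 27 promoters of the list, against 3.99% of all genes. The Isg15 window, at chr4:156200769-156201068 (minus strand, GRCm38.p6, RefSeq), is shown with its 3 overlapping matches in capitals.
Isg15: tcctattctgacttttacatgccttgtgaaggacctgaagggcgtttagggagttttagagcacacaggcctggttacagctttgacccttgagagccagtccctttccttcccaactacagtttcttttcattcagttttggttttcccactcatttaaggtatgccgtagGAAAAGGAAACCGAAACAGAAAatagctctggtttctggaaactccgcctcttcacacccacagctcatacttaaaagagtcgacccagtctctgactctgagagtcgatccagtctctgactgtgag

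Transcripts of other cell types were higher on the NTN_CD4cre arrays, unevenly between them. Of 20 B cell genes tested 6 were higher, against 2.56% of all genes, and none lower, with a median of 1.48, but 3 markers of the list, Pax5, Ebf1 and Blk, were not well above background on any of the 6 arrays. The called members included Vpreb3, a surrogate light chain relative, Blnk, an adaptor of the B cell receptor, the receptor's signalling chains Cd79a and Cd79b, and Fcrla. Vpreb3 read -1.19, 0.56 and 0.02 with nephritis and -2.59, -2.62 and -3.12 without (2.57 ± 0.37, adjusted p = 0.0082). The mean level of the list was -1.86, -0.41 and -0.61 on the NTN_CD4cre arrays and -2.35 to -2.14 on the CD4cre arrays, so replicates 2 and 3 with nephritis stood highest. The median was 0.65 with normexp (3 called) and 0.84 with the authors' value table (5 called), 11 genes were called without NTN_CD4cre replicate 1, 3 without NTN_CD4cre replicate 2, 3 without NTN_CD4cre replicate 3, 3 without CD4cre replicate 1 and 3 without CD4cre replicate 3, and none with slide as a block. Tnfrsf13c, the receptor for the B cell survival factor BAFF, counted here in the noncanonical NF-kB list, showed the same order, with -1.83, -0.46 and -0.63 with nephritis and -2.48, -2.43 and -2.77 without (1.59 ± 0.31, adjusted p = 0.024).

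Plasma cell genes had another order. Of 9 tested, 3 were higher, against 2.56% of all genes, and none lower: Mzb1, a chaperone of antibody secretion, and with it Xbp1 and Txndc5. Mzb1 read 2.16, -0.36 and -0.14 with nephritis and -2.86, -1.84 and -2.02 without (2.79 ± 0.54, adjusted p = 0.022). The list mean stood 2.30 above the CD4cre mean on NTN_CD4cre replicate 1, 0.40 on replicate 2 and 0.87 on replicate 3. Jchain, the joining chain of secreted antibody, read 5.50, 1.33 and 2.40 with nephritis and 0.80, 1.27 and 1.40 without, and did not pass (adjusted p = 0.192). No plasma cell gene was called without CD4cre replicate 1, without CD4cre replicate 3 or with slide as a block, and 1 was called without CD4cre replicate 2, without NTN_CD4cre replicate 1 or without NTN_CD4cre replicate 2. The list median was 1.40, against 0.55 with normexp, 0.66 with the authors' value table and 0.61 without NTN_CD4cre replicate 1. NTN_CD4cre replicate 1 also carried the highest Sdf2l1, Xbp1 and Hsp90b1 values of the 6 arrays. The mean of the whole unfolded protein response list stood 0.42, 0.25 and 0.40 above the CD4cre mean on NTN_CD4cre replicates 1, 2 and 3.

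Macrophage and monocyte genes were higher on replicates 2 and 3. Of 19 tested, 4 rose, against 2.56% of all genes, and none fell, with a median of 1.04: Fcgr1, the high-affinity antibody receptor, Adgre1, a surface receptor of tissue macrophages, Slc11a1, a metal transporter of phagosomes, and Lyz2 (lysozyme). Lyz2 read -2.12, -0.99 and -0.91 with nephritis and -4.35, -3.04 and -3.50 without (2.29 ± 0.54, adjusted p = 0.038). Fcgr1 was not well above background on any CD4cre array and was on 1 of the 3 NTN_CD4cre arrays, so it was at least 2.12-fold higher (adjusted p = 0.014). The list mean stood 0.01, 1.94 and 1.79 above the CD4cre mean on NTN_CD4cre replicates 1, 2 and 3, and Cd14 was not well above background on any of the 6 arrays. Without NTN_CD4cre replicate 1, 11 of the 19 were called, and without CD4cre replicate 1, without NTN_CD4cre replicate 2 or without NTN_CD4cre replicate 3, 1 was. None was called with normexp (median 0.40) or with slide as a block, and 2 were called with the authors' value table (median 0.50), when dim probes were kept, or without CD4cre replicate 3. Dendritic cell genes (9 tested, 0 called, 4 at an unadjusted limma p under 0.05) had a median of 1.45 and the same order, with list means at -0.55, 2.13 and 1.59 relative to the CD4cre mean. Their median was 2.43, with 5 called, without NTN_CD4cre replicate 1, against 0.72 without NTN_CD4cre replicate 2, 0.96 without NTN_CD4cre replicate 3, 0.82 without CD4cre replicate 1 and 0.22 without the 2 arrays that stood apart.

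**Figure D4:**
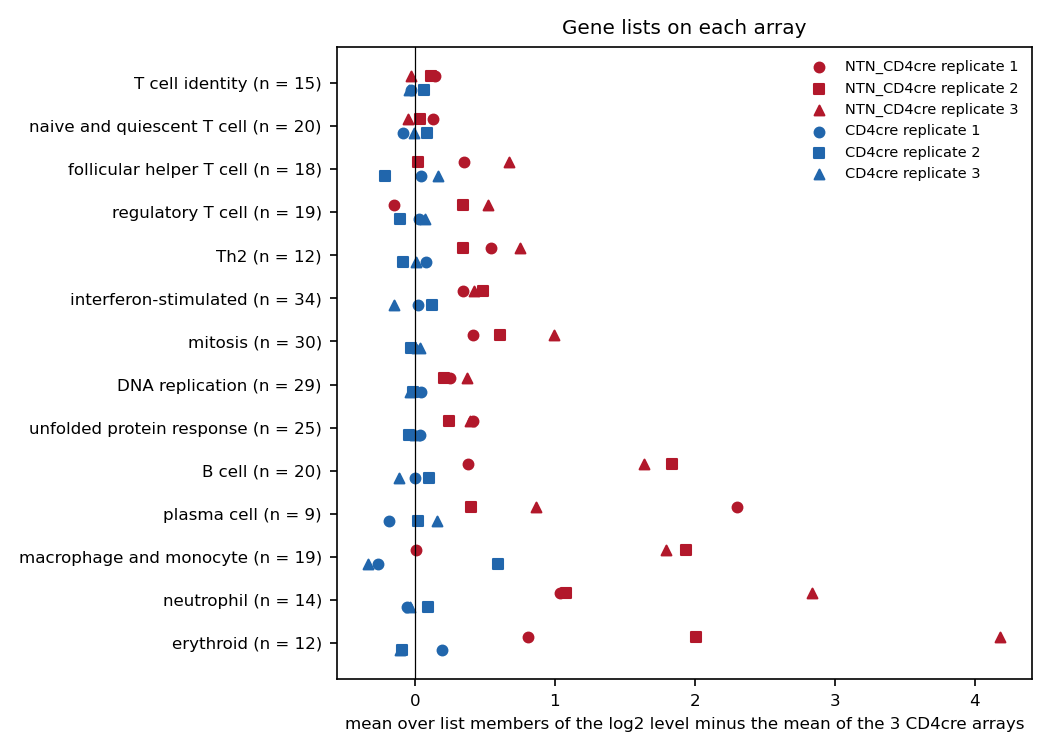
Mean log2 level of each list's members on each array, minus the mean of the 3 CD4cre arrays (horizontal axis), for 14 lists with the number of members tested. Red marks are NTN_CD4cre and blue marks CD4cre, and the shape gives the replicate. The mitosis and interferon lists are shifted on all 3 NTN_CD4cre arrays, the plasma cell list most on replicate 1, and the erythroid list most on replicate 3.

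Erythroid genes differed widely between the NTN_CD4cre arrays. Of 12 tested, 3 were higher, against 2.56% of all genes, and none lower: Rhd, the Rhesus blood group protein, Klf1, the master transcription factor of red cells, and Epor, the erythropoietin receptor. Rhd read -3.61, -1.01 and 2.19 on the NTN_CD4cre arrays and -5.82, -6.62 and -6.80 on the CD4cre arrays, none of which was well above background, so its mean was at least 14.7-fold higher (adjusted p = 0.028). With slide as a block the Rhd difference was 3.57 ± 2.05 (adjusted p = 0.569), and its level differed by 2.03 between the slides in the IKK2 knockout. The list mean stood 0.81, 2.01 and 4.18 above the CD4cre mean on replicates 1, 2 and 3. The list median was 2.63, against 0.70 with normexp, 1.04 with the authors' value table, 1.49 with slide as a block and 1.19 without NTN_CD4cre replicate 3. No erythroid gene was called with normexp, with the authors' value table, with slide as a block, without CD4cre replicate 1 or without CD4cre replicate 3, while 1 was without CD4cre replicate 2, 1 without NTN_CD4cre replicate 3 and 7 without NTN_CD4cre replicate 1. Hba-a1, an alpha globin, read 2.49, 6.45 and 8.67 with nephritis and 3.41, 2.75 and 2.56 without, and did not pass (adjusted p = 0.143). Replicate 3 with nephritis also had the highest mean of the mitosis list, and the part of the erythroid genes in the mitosis result was not tested.

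The Rhd window is shown because it is the gene with the largest difference, and because red cell genes are often controlled by GATA factors. It lies at chr4:134864286-134864585 (plus strand, GRCm38.p6, RefSeq) and holds 1 match to AGATAA, in capitals. AGATAA occurred on either strand in 5 of 9 erythroid promoters, against 12.7% of all genes.
Rhd: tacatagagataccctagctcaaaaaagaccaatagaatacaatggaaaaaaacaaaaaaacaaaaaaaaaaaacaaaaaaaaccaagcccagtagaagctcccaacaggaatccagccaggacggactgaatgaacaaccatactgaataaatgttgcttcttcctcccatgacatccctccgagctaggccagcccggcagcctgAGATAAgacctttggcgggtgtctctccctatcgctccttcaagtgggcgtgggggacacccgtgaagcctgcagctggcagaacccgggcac

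Of the 15 genes with the largest increases, 11 were not well above background on any CD4cre array. They included Rhd and Klf1 of the erythroid list. Aqp1, the red cell water channel, was at least 28.2-fold higher (adjusted p = 0.013), Tal1, a haematopoietic transcription factor, at least 10.3-fold (adjusted p = 0.011) and Kel, the Kell blood group antigen, at least 4.82-fold (adjusted p = 0.028). Mcpt8, a protease of basophils, read 1.01, -3.54 and -1.90 with nephritis, and its mean was at least 9.27-fold higher (adjusted p = 0.030). With slide as a block the Mcpt8 difference was 3.49 ± 1.96 (adjusted p = 0.563), and its level differed by 1.60 between the slides in the IKK2 knockout. Ctsg, the granule protease cathepsin G, was at least 9.07-fold higher (adjusted p = 0.025), and Ear1, an eosinophil-associated ribonuclease, at least 4.66-fold (adjusted p = 0.0070). The blocked difference was 2.59 ± 1.42 for Ctsg (adjusted p = 0.550) and 3.14 ± 0.86 for Ear1 (adjusted p = 0.214). Between the slides in the IKK2 knockout the levels differed by 1.43 for Ctsg and 0.34 for Ear1. In the neutrophil list, of 14 tested none was called higher and 6 were higher at an unadjusted limma p under 0.05. Elane (neutrophil elastase) was the 1 called lower (7.14%, against 1.47% of all genes), by 0.81 ± 0.13 (adjusted p = 0.013). Of the 14, 11 had positive and 3 negative differences, with a median of 1.72, or 0.96 with slide as a block. The list mean stood 1.04, 1.08 and 2.84 above the CD4cre mean on NTN_CD4cre replicates 1, 2 and 3. S100a9, an abundant neutrophil protein, read -0.09, 0.62 and 3.86 with nephritis and -3.85, -1.13 and -2.24 without, with an adjusted p of 0.069.

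Among the 15 genes with the largest decreases, 14 were not well above background on any NTN_CD4cre array. Clec4a2, a C-type lectin of myeloid cells, read -4.88, -5.18 and -4.63 with nephritis and -3.11, -3.08 and -2.76 without, and was at least 2.52-fold lower (adjusted p = 0.018). Slc14a2, a urea transporter, was at least 1.79-fold lower (adjusted p = 0.022). The blocked Slc14a2 difference was -0.72 ± 0.45 (adjusted p = 0.608), and its level differed by -0.77 between the slides in the IKK2 knockout. Of the 215 lower genes, 160 were above background on all 6 arrays. Of the ribosomal protein list (36 tested), 1 gene was called lower (2.78%, against 1.47% of all genes). This was Rpl4, which fell by 0.68 ± 0.17 (adjusted p = 0.042), at 7.08, 7.05 and 7.17 with nephritis and 7.58, 7.91 and 7.85 without. Its difference was -0.01 ± 0.19 with slide as a block, and its level differed by -0.67 between the slides in the IKK2 knockout. Brighter genes were looked at after their values had been seen, as those with a level above 0 in both groups, of which 139 were called higher and 67 lower. Lower there were Rps21, a ribosomal protein (-1.09 ± 0.26), St6galnac1, a sialyltransferase (-0.98 ± 0.19), Car4, a carbonic anhydrase (-0.91 ± 0.13), and Slc45a3 (-0.85 ± 0.10). Higher there was Fut7, the fucosyltransferase that makes selectin ligands (1.08 ± 0.19). With slide as a block the Rps21 difference was -0.14 ± 0.34, and its level differed by -0.95 between the slides in the IKK2 knockout. The blocked differences were -1.21 for St6galnac1, -0.73 for Car4, -0.70 for Slc45a3 and 1.01 for Fut7, none of them called.

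Housekeeping and metabolic programmes held at most 1 called gene per list. The called share was 5.88% for heat shock, 3.70% for the proteasome and 4.17% for cholesterol synthesis, against 2.56% of all genes called higher. Fkbp4, a co-chaperone of HSP90, was the 1 heat shock gene of 17 that was called, at 0.93, 1.01 and 0.82 with nephritis and 0.36, 0.49 and 0.54 without (0.46 ± 0.10, adjusted p = 0.029). Psmd14, a deubiquitinase of the proteasome lid, rose by 0.36 ± 0.08 (adjusted p = 0.038), and the other 26 proteasome genes did not pass, with 26 of 27 positive and a list median of 0.17. Ebp, a sterol isomerase, rose by 0.45 ± 0.09 (adjusted p = 0.025) as the 1 called of 24 cholesterol synthesis genes, at 5.11, 5.10 and 4.83 with nephritis and 4.46, 4.63 and 4.61 without. The groups did not overlap for these 3 genes, and none was called with slide as a block. No gene passed among 19 of glycolysis (median 0.21, 10 at an unadjusted limma p under 0.05) or 30 of the respiratory chain (median 0.17, 10 at an unadjusted p under 0.05). No gene passed in limma among 24 immediate early genes, 20 of proximal T cell receptor signalling, 20 of IL-2 and STAT5, 15 glucocorticoid-inducible, 13 of the BCL2 family, 12 inhibitory receptors, 12 innate-like T cell genes and 8 GIMAP GTPases, with list medians of -0.02 to 0.18 and 1 to 5 genes of each at an unadjusted p under 0.05. The 11 platelet genes all had negative differences, with a median of -0.42, none called by limma and 1 at an unadjusted p under 0.05. Their list mean stood at -1.33, -0.22 and 0.15 relative to the CD4cre mean on NTN_CD4cre replicates 1, 2 and 3, and the median was -0.03 without NTN_CD4cre replicate 1, -0.03 with normexp and -0.01 with slide as a block.

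In each of the 3 NF-kB lists 1 gene was called, and it was higher. These were 1 of 23 canonical pathway genes (4.35%), 1 of 28 target genes (3.57%) and 1 of 15 noncanonical genes (6.67%). The share over all genes called higher was 2.56%. Ikbkb, which encodes the kinase IKK2, read 3.27, 3.45 and 3.18 on the NTN_CD4cre arrays and 3.29, 3.31 and 3.30 on the CD4cre arrays (0.002 ± 0.11, adjusted p = 0.992). Ikbkg, which encodes NEMO, rose by 0.40 ± 0.10 (adjusted p = 0.042), at -0.26, -0.40 and -0.26 with nephritis and -0.85, -0.74 and -0.52 without. Its other probe differed by 0.07, and with the mean of both probes the difference was 0.23 ± 0.09 (adjusted p = 0.147). Of 17 alternatives the call held in 2, the stricter filter and the fit without CD4cre replicate 3. Bcl3, an atypical inhibitor that binds NF-kB dimers, rose among the 28 target genes, at 4.40, 4.89 and 4.32 with nephritis and 3.94, 3.85 and 3.84 without (0.66 ± 0.16, adjusted p = 0.038). The other 27 target genes did not pass, and the median of the list was 0.09, against 0.10 for all genes. With slide as a block the list median was 0.30, against 0.01 for all genes, with none called and 7 of 28 higher at an unadjusted limma p under 0.05.

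The IKK2 and NEMO knockouts give the same contrast without sharing an array with the Cre control comparison. Of the 591 called genes, 475 had the same sign in the NEMO knockout, whose 4 arrays all lie on slide 3, against 53.9% of all genes. In the IKK2 knockout within slide 1, 291 had the same sign, against 46.2% of all genes. The response differed between Cre control and IKK2 knockout cells at 166 genes (1.13%), or 38 with slide as a block, and between Cre control and NEMO knockout cells at 39 genes (0.266%). Il1rl1 differed by 0.20 ± 0.25 in the NEMO knockout and by -0.80 ± 0.21 in the IKK2 knockout. E2f1 differed by 0.43 ± 0.12 in the NEMO knockout and 0.29 ± 0.10 in the IKK2 knockout, and Ascl2 by 1.34 ± 0.53 and 0.68 ± 0.44 in the same order. None of these 6 differences passed in limma, with adjusted p values of 0.102 to 0.99982. The IKK2 knockout values of these 3 genes use its arrays on both slides. Within slide 1 they were -0.64 for Il1rl1, 0.33 for E2f1 and 0.69 for Ascl2.

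**Figure D5:**
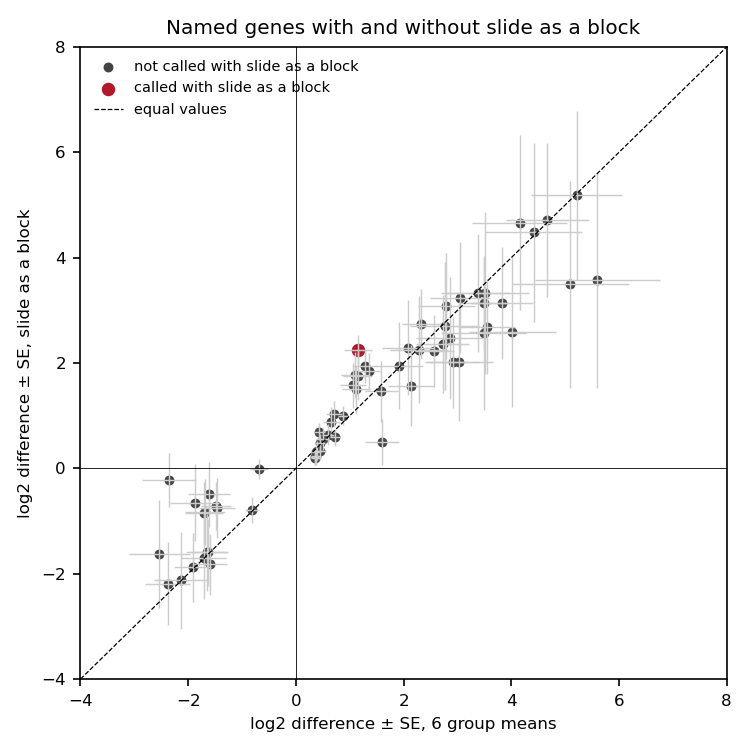
Log2 difference, NTN_CD4cre minus CD4cre, with SE, of the 66 called named genes in the fit of 6 group means (horizontal axis) and with slide as a block (vertical axis). All 66 kept their sign, and Lgals3 (red) was the 1 called in both fits.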

How the data were processed

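Spot intensity on a linear scale was deposited by the authors as scanner output of 1-colour arrays; per the file headers the processed intensity was background-subtracted and detrended. Agilent Feature Extraction is given as version 10.5 in the submitters' processing notes and as a later one in the headers. A log2 value table was also deposited by the authors, with its method not given in the sources used here (background treatment unknown; column medians 5.65 to 5.68); it served as an alternative. Sorted cells gave 0.1 µg of RNA per labelling, with an RNA integrity number of at least 8, per the labels' protocols; 2 extraction kits were used, not tied to samples.

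Here, spots of a probe were averaged without control and outlier spots, taken to log2 and scaled by the 75th percentile of each array. RefSeq (GRCm38.p6) accessions named 27235 of 55681 probes; the headers' build is mm9, so table coordinates serve promoters only. A gene was its brightest probe among those well above background on 2 or more of the 16 arrays. The limma 3.58.1 model (R 4.3.3) fitted 6 group means, with two-sided p adjusted by Benjamini-Hochberg across 14675 genes; all adjusted p values come from it. Python 3.11.15, numpy 2.4.6, pandas 2.3.3 and matplotlib 3.10.9 made tables and plots. Tested on simulated data for this comparison (14675 genes, 200 changed), the fit recovered 69% of changes of 1 and 90% of changes of 2 on the log2 scale, with 4.79% of calls false. For each gene the simulation used independent noise with the same spread in every group, and no slide difference. Its share of false calls therefore does not cover slide differences or unequal spread in the real arrays. "At least" folds set the bright group's mean against a floor, taken per array as the dimmest signal well above background or, if higher, that of the probe itself. They rest on group means and take in neither the spread among arrays nor the slide difference. An exact permutation test of 3 against 3 arrays cannot go below 0.1. The array number limits precision.

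Named genes are the 15 largest called changes in each direction without overlap between groups (clone names left out), up to 4 called members of each of 37 lists, and 19 fixed genes; some of these are not reported here, and further members and genes were named after their values were seen. Members and lists were chosen with earlier results of these data known. Alternatives covered background correction, scaling, the value table, dim-probe filters, slide and replicate blocks, probe choice, the arrays fitted and arrays left out. The normexp alternative used median spot signals, since the files used hold no mean signal.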

Additional observations from a re-analysis of the deposited data

Results flagged for a closer look

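The nephritis response differed between genotypes, by a limma test of the difference itself, for 9 of the named genes reported here. Against the IKK2 knockout, the Cre control response was higher by 3.76 for Ear1 (adjusted p = 0.037), 3.91 for Ear2 (adjusted p = 0.0496), 2.16 for Il1rl1 (adjusted p = 0.021) and 0.78 for Ikbkg (adjusted p = 0.037), which encodes NEMO. It was higher by 2.29 for Tnfrsf13c (adjusted p = 0.040), 1.11 for the co-chaperone Fkbp4 (adjusted p = 0.013), 0.82 for Sdf2l1 (adjusted p = 0.027), 3.81 for Vpreb3 (adjusted p = 0.021) and 3.73 for Slc11a1 (adjusted p = 0.039). Against the NEMO knockout, Vpreb3 differed by 3.54 (adjusted p = 0.040).

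With slide as a block, the differences from the IKK2 knockout remained past the threshold for Il1rl1 (2.48, adjusted p = 0.036) and Fkbp4 (1.02, adjusted p = 0.048). For Ear1, Ear2, Ikbkg, Tnfrsf13c, Sdf2l1, Vpreb3 and Slc11a1 the blocked values kept their sign, with adjusted p values of 0.063 to 0.144. Groups of 3 arrays were too small for a test of single outlying samples.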

How the results depend on the processing

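The 591 called genes became 167 with normexp background correction, 469 with the percentile taken over detected probes only (within 1.5 times), 321 with the authors' value table, 229 with no filter on dim probes, 2 with slide as a block, 0 in the 6 arrays alone (lowest adjusted p 0.059) and 63 without both arrays that stood apart; leaving out 1 array gave 111 to 843. The 48 called list members became 15, 29, 22, 18, 1, 0 and 7 under the same settings in that order, 32 with the replicate block, and 10 to 77 with 1 array left out. With slide as a block and CD4xIKK2 replicate 1 or 2 also left out, settings chosen after seeing the data, 3 and 10 genes and 1 and 1 list members were called. Of called genes 63.6% were higher, against 49.7% with normexp, 47.5% with the other percentile and 43.6% with the value table. The median of all genes was 0.10, against 0.08, 0.03 and 0.03 under those 3 settings. Quantile normalization, the stricter filter and the mean of probes gave 554, 625 and 547 genes. Replicate numbers did not pair the arrays: deviations of same-numbered arrays correlated at 0.07, 0.08 and 0.002, and the replicate block gave 439 genes.

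All 66 called named genes kept their direction in each alternative that gave them a value; the stricter filter gave one for 53, the 2 settings chosen after seeing the data were run for counts only, and 1 gene kept its call with slide as a block. Of the genes reported here, those not called turned sign as follows; the cause was not tested. Normexp gave 0.0583 for Cd4, -0.0940 for Ikbkb and -0.00767 for Il17a. The other percentile gave -0.0651 for Ikbkb and -0.0333 for Cd44. Quantile normalization gave 0.0345 for Cd3e, -0.0820 for Ikbkb, -0.0287 for Cd44 and -0.18 for Il17a. The value table gave 0.0607 for Cd4, -0.17 for Ikbkb and -0.16 for Il17a. The mean of probes gave 0.0328 for Cd4. Without both arrays that stood apart, Cd4 was at 0.0177 and Ikbkb at -0.0746. Slide as a block gave 0.0462 for Cd3e, -0.10 for Ikbkb, 0.45 for Il2ra, 0.44 for Foxp3, 1.06 for Tbx21, 0.98 for Ifng and 0.30 for Il2.
Leaving out 1 array gave -0.13 to 0.026 for Cd4, -0.073 to 0.012 for Cd3e, -0.072 to 0.061 for Ikbkb, -0.057 to 0.19 for Cd44, -0.39 to 0.27 for Foxp3 and -0.14 to 0.63 for Il17a.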
